A study of Mus musculus with 16 samples.

Results

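The 6 actin genes of the mouse were followed here through chromatin accessibility peaks of cultured myoblasts. They are the 4 muscle actins, Acta1, Actc1, Acta2 and Actg2, and the 2 cytoplasmic actins, Actb and Actg1, out of 21728 protein-coding genes on the autosomes and the X chromosome. The members are named genes, and the rule that takes them uses no measured value. A peak was counted for a gene when its summit, the base of highest signal, lay inside the GENCODE M21 gene body or within 20 kb of either end of it in the mouse build mm10. The 6 windows held 173 of the 549808 peaks in the 14 libraries compared, 104 of them at muscle actins and 69 at cytoplasmic actins.

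Chromatin was profiled by ATAC-seq, where a transposase inserts sequencing adapters into accessible DNA, in C2C12 iMyoD1 cells. C2C12 is an established mouse myoblast line that fuses into myotubes when serum is withdrawn. All 4 groups kept the endogenous Myod1 gene and carried, in addition, Halo-tagged MyoD1 alleles driven by a doxycycline-responsive promoter, and they differed in what the cells received for 24 h. GM no dox and GM +dox stayed in serum-rich growth medium with vehicle or doxycycline, and DM no dox and DM +dox received vehicle or doxycycline at the moment serum was withdrawn, with 4 biological replicates in each group. The line is a polyclonal population in which only part of the nuclei switch the transgene on, so every +dox library mixed induced and uninduced nuclei, and a region open in more nuclei cannot be told apart from one more open in each. Seeding was 75000 cells a well for GM and 300000 for DM, so medium and cell density cannot be told apart. Replicate 1 of DM no dox and replicate 1 of DM +dox were left out by the study as quality outliers and enter no comparison here, which leaves 4, 4, 3 and 3 libraries.

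Actins are the subunits of the actin filament. Acta1 and Actc1 encode the skeletal and cardiac alpha-actins of the sarcomere's thin filament, Acta2 and Actg2 encode the smooth muscle alpha and gamma actins, and Actb and Actg1 encode the beta and gamma actins that build the cytoskeleton of nearly all cells. Differentiating skeletal myoblasts switch from cytoplasmic to sarcomeric actins and pass through a stage with Actc1 and Acta2. Promoters of actin genes are textbook targets of serum response factor (SRF), which binds a sequence called the CArG box and is switched by MRTF coactivators that sense free actin monomer. MyoD1 binds E-boxes, CANNTG, with a preference for the form CAGCTG. A peak in these data marks open DNA and measures neither transcription nor the binding of a given factor.

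All 6 genes are transcribed from the minus strand. Acta1 lies at chr8:123891769-123894751, Actc1 at chr2:114047282-114053548, Acta2 at chr19:34241090-34255590, Actg2 at chr6:83512905-83536265, Actb at chr5:142903115-142906754 and Actg1 at chr11:120345690-120348542. Start sites of other protein-coding genes fell inside 3 of the windows: Dguok in that of Actg2, Fbxl18 in that of Actb and Fscn2 in that of Actg1. Positions are given in kb from the annotated start of the actin gene, negative upstream and positive downstream.

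RefSeq's promoter table for GRCm38.p6 held 4 of the 6 genes: Acta1, Actc1, Acta2 and Actg1. Its start of Acta2 lies 217 bases inside the GENCODE gene, so that this window was annotated as untranslated exon throughout and is not shown. Its start of Actc1 lies 673 bases inside the GENCODE gene, so that the Actc1 sequence shown and its CArG box lie within that gene. Start-site peaks and the G and C content around starts were taken at the GENCODE starts. The other 3 promoters are shown because each holds a CArG box, in capitals, on the strand of the gene from 5′ to 3′ and ending where an annotated untranslated exon begins, and because none of the 3 had a peak within 1 kb of its GENCODE start in any library.
Acta1 promoter, chr8:123894776-123894935: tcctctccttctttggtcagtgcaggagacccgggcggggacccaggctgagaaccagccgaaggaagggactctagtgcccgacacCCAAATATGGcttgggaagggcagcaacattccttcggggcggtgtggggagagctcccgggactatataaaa
Actc1 promoter, chr2:114052888-114053035: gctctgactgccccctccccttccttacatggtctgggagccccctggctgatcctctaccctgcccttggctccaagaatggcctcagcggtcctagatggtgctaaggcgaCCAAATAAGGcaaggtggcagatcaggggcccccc
Actg1 promoter, chr11:120348543-120348655: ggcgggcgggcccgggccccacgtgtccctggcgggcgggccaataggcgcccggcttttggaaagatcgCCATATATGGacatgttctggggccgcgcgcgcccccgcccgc
The CArG box began at -73 from the RefSeq start in Acta1, at -47 in Actc1 and at -90 in Actg1. A CArG box on either strand was present in 0.965% of 32843 RefSeq promoter windows of 160 bases. The Acta2 window held no match to these letters.

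The deposited lists differed in length, which bears on every count that follows. The 14 lists held 14710 to 58587 peaks, from 14710 to 49300 in the 7 no dox lists and from 36531 to 58587 in the 7 +dox lists, and a peak missing from a list is a signal below the authors' threshold and does not show closed DNA. Comparisons were therefore made in full lists and in lists of equal length, the 14710 peaks with the highest -log10 p in each library. The fragments covering a summit were solved from each peak's fold enrichment and -log10 p. Only whole numbers were searched, and every solution in the actin windows gave back the deposited -log10 p within a tolerance of 0.01. The weakest peak of each kept library rested on 4 to 9 fragments. A start-site peak means a summit within 1 kb of the annotated start. Of 6 myoblast markers 2, Myod1 and Chrna1, had one in all 14 lists. Des had one in 13, Cdh15 in 10, Myf5 in 6 and Msc in 3. Of 5 smooth muscle markers none had one in all 14 lists, with Myh11 and Smtn in 0, Cnn1 in 1, Lmod1 in 7 and Tagln in 8. Of 4 cardiac markers, 3 had none and Nkx2-5 had one in 1 list, and of 5 markers of other cell types 4 had none, the exception being the endothelial gene Pecam1 with 8 lists.

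Actb was the only actin gene with a start-site peak in all 14 lists. Acta2 had one in 10, and Acta1, Actc1, Actg2 and Actg1 had none in any list. Among all 21728 genes, 45.7% had no start-site peak in any of the 14 lists, 31.0% had one in 1 to 13 lists and 23.3% had one in all 14. The muscle actins thus included 3 of 4 genes without a start-site peak and the cytoplasmic actins 1 of 2, and Actg1, although expressed in nearly all cells, was the one without. The 500 bases on either side of the Actg1 start were 72.9% G or C, the 98.1th percentile of all genes, and 14.6% of the 961 genes at 70% or more lacked a start-site peak. Around the starts of Acta1, Actc1, Acta2 and Actg2, G and C made up 56.1%, 49.3%, 46.1% and 50.7%, and of genes in the same ranges of composition 26.8%, 72.6%, 72.6% and 45.4% lacked a start-site peak. The value for Actb was 58.2%.

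Sequence repeated elsewhere in the genome was unequal between the members and was examined because reads that map to several places may be discarded. Of the 50-base words of the Actg1 gene body, 57.3% occurred elsewhere, against 6.38% for Actb. Within 1 kb of either side of the start the share was 15.3% for Actg1 and 0% for Actb. In the 1 kb upstream of Actg1 it was 0%. How reads with several matches were treated is not given in the sources used here, and the part of repeated sequence in the missing peak was not tested.

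**Figure D1:**
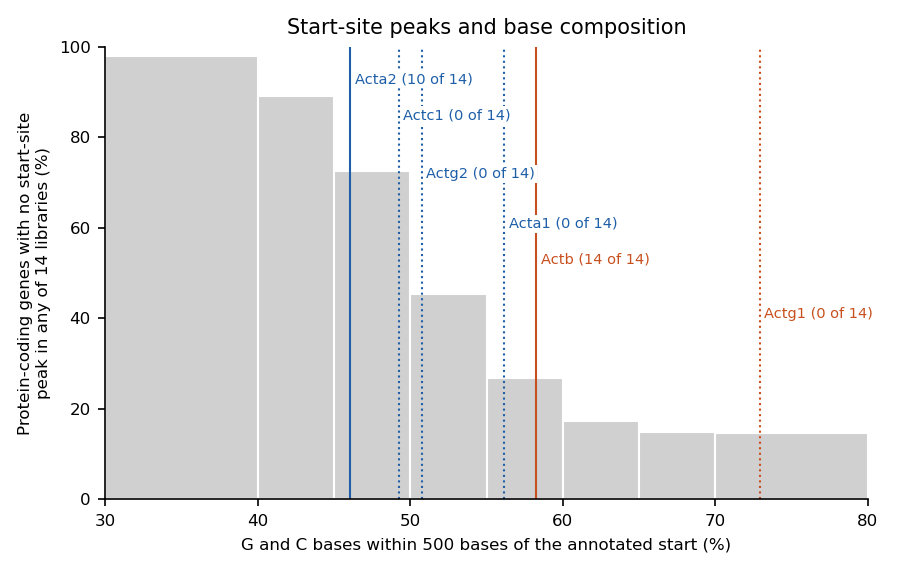
Percent of protein-coding genes with no start-site peak in any of the 14 lists (y axis) by the G and C content of the 500 bases on either side of the start (x axis, percent), with vertical lines for the 6 actins, solid where the gene had a start-site peak and dotted where it had none. The share without a peak fell from 98.0% below 40% G and C to 14.6% at 70% and above, the range that holds Actg1 at 72.9%.

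Overlapping peaks of the 14 full lists merged into 80290 regions with a median width of 399 bases. The actin windows held 26 of these regions, 16 at muscle and 10 at cytoplasmic actins, and 21 of the 26 had a peak in at least 2 lists. Of the 26, 4 were in all 14 lists, namely the regions at -14.19 kb and +0.61 kb of Actb and 2 regions of the neighbour Dguok in the Actg2 window. Of the regions in at least 2 lists, 11 had a muscle actin and 4 a cytoplasmic actin as the nearest protein-coding start. Of the regions named below, those over a start site and the strongest of each window without one follow a fixed rule, and the others were chosen after their values were seen.

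**Figure D2:**
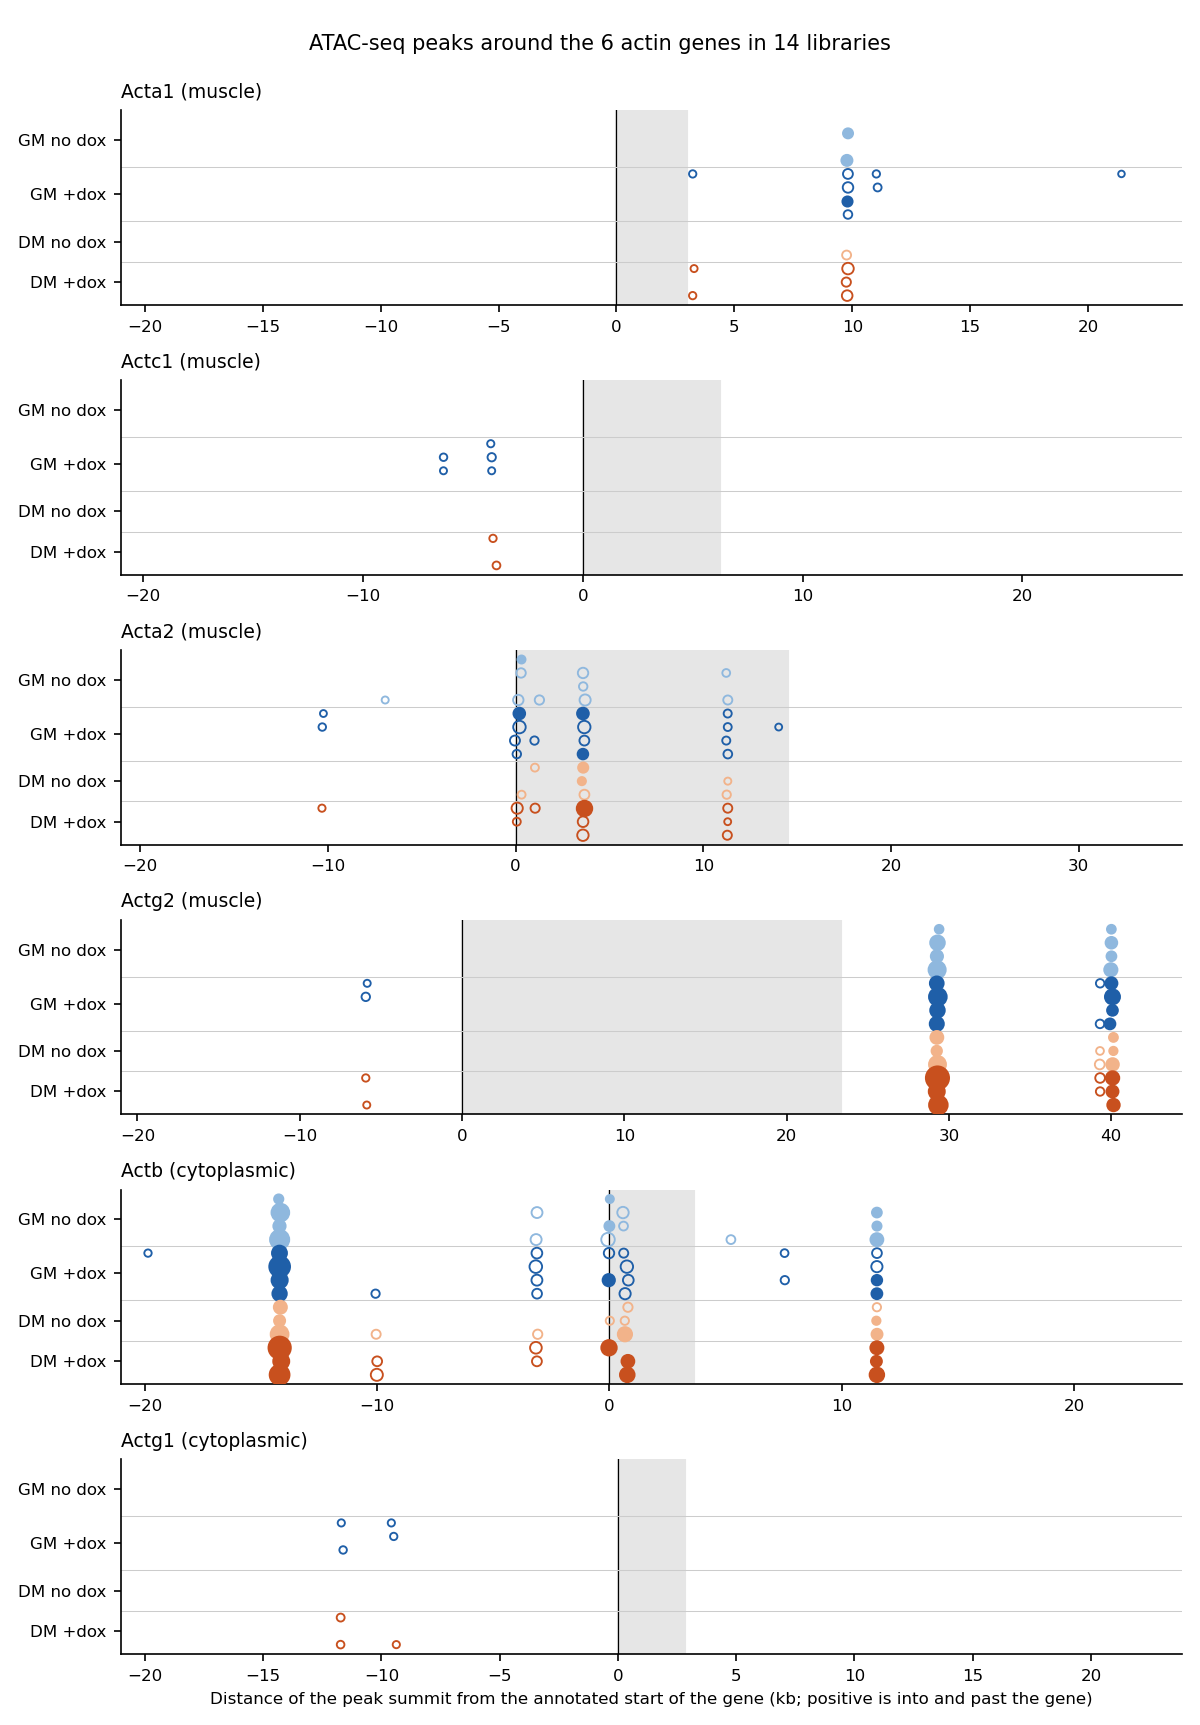
Peaks in the 6 windows, by distance of the summit from the annotated start in kb (x axis) and library, grouped by condition (y axis), where circle size follows the fragments at the summit, filled circles are among the 14710 strongest peaks of their library and the grey bar is the gene body. Actb had peaks at -14.19 kb and at its start in all 14 libraries, while no library had a peak within 1 kb of the starts of Acta1, Actc1, Actg2 and Actg1.

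Acta1, skeletal alpha-actin, had 16 peaks in 4 regions, 3 of the peaks in equal-length lists. Its strongest region lay past the gene's 3′ end at +9.8 kb, chr8:123884740-123885098, between protein-coding genes. Its summit was covered by 31 and 41 fragments in replicates 2 and 4 of GM no dox, with no peak in replicates 1 and 3, and by 29, 35, 32 and 18 in the 4 GM +dox libraries. In DM no dox only replicate 4 had a peak, of 21 fragments, and the 3 DM +dox libraries had 45, 23 and 36. Fold enrichment over local background was 15.0 and 15.6 in GM no dox, 7.76 to 13.6 in GM +dox, 9.43 in the DM no dox library and 11.3 to 16.6 in DM +dox. The region thus had a peak in all 7 +dox lists and in 3 of 7 no dox lists, and DM +dox overlapped both GM groups. A limma fit of log2 heights set missing heights to the lowest of their list. There doxycycline differed by 1.14 in DM (SE 0.454, limma adjusted p = 0.455) and 0.42 in GM (SE 0.393, limma adjusted p = 0.742). The 3 no dox lists with the peak were the 3 longest, of 39721 peaks or more, and in equal-length lists the peak was in 2 GM no dox libraries, 1 GM +dox library and none in DM. The 200 bases around its median summit are shown because this is the strongest Acta1 region, with its 3 E-boxes, among them a CAGCTG site, in capitals. E-boxes were in 12 of the 21 actin regions found in at least 2 lists, against 67.7% of all regions, and CAGCTG in 7 of the 21, against 19.7%.
Acta1 +9.8 kb, chr8:123884851-123885050: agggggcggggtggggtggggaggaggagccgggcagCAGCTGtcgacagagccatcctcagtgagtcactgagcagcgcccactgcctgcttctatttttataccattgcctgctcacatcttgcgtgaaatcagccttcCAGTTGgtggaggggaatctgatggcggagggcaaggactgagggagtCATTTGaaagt
A weaker region at +3.23 kb had a peak in 1 GM +dox and 2 DM +dox libraries, on 7 to 9 fragments. Another at +11.05 kb had one in 2 GM +dox libraries on 9 and 13 fragments, and 21.7% of the 50-base words of that region occurred elsewhere in the genome.

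Actc1, cardiac alpha-actin and an early gene of skeletal differentiation, had 7 peaks in 2 upstream regions, and none of them entered an equal-length list. The region at -4.14 kb, chr2:114057396-114057915, lies between protein-coding genes and inside 2 annotated noncoding transcripts. Peaks were called in 3 of the 4 GM +dox libraries, on 8, 16 and 7 fragments, and in 2 of the 3 DM +dox libraries, on 9 and 12 fragments, and in none of the no dox libraries. Fold enrichments were 4.29 to 8.43 in GM +dox and 5.33 to 6.11 in DM +dox, so the +dox groups overlapped. The region at -6.34 kb had a peak in 2 GM +dox libraries on 7 and 10 fragments. The sequence at -4.14 kb is shown because it is the strongest Actc1 region and holds 3 E-boxes, in capitals, including a CAGCTG site.
Actc1 -4.14 kb, chr2:114057592-114057791: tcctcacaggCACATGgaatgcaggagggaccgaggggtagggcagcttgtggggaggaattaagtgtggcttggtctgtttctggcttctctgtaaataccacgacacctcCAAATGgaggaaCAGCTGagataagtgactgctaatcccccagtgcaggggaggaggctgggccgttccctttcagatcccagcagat

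Acta2, smooth muscle alpha-actin, was the muscle actin with the most peaks, 43 in 7 regions, all nearest to its own start, and 7 of the peaks entered equal-length lists. The start-site region at +0.18 kb, chr19:34255190-34255770, overlaps an untranslated exon. In GM it was called in 3 of 4 libraries without and 4 of 4 with dox, and in DM in 1 of 3 without and 2 of 3 with dox. Fold enrichment ranged from 5.36 to 6.96 in GM no dox and from 3.98 to 9.32 in GM +dox. It was 3.71 in the DM no dox library and 3.92 and 5.80 in the DM +dox libraries, on 13 to 56 fragments over all groups. The share of libraries with a peak was higher in GM than in DM in both treatments. In sum it was 7 of 8 GM and 3 of 6 DM libraries. The presence test passed in no comparison. For either differentiation comparison the smallest p it allows is 0.0571, above the threshold of 0.05, so it cannot decide whether GM and DM differed.

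The intronic region of Acta2 at +3.6 kb, chr19:34251695-34252271, had a peak in 13 of 14 libraries. Only replicate 1 of GM no dox, the shortest list, lacked it. Fold enrichment was 9.43, 5.80 and 6.57 in replicates 2 to 4 of GM no dox and 9.53, 8.01, 6.72 and 8.16 in GM +dox. It was 7.54, 7.17 and 8.11 in DM no dox and 12.9, 10.4 and 9.76 in DM +dox, where all 3 libraries lay above the others on this unscaled measure. The median log2 fold enrichment of the equal-length lists was 4.02 to 4.28 in those libraries and 2.60 to 4.10 in the others, and by rank in their own lists the DM +dox peaks, at 10547 to 18692, overlapped those of DM no dox, at 9769 to 21627, and of GM +dox, at 12743 to 21887. In equal-length lists the peak was in 1 of the 3 DM +dox libraries, 2 of the 3 DM no dox, 2 of the 4 GM +dox and 0 of the 4 GM no dox. Absent from 1 list, the region entered only the height fit with missing heights imputed, where it was 0.32 higher on the log2 scale in differentiation with dox (SE 0.345, limma adjusted p = 0.762) and -0.13 for doxycycline in DM (SE 0.369, limma adjusted p = 0.935). The other intronic regions, at +11.3 kb and +1.04 kb, had a peak in 11 and 4 libraries, on 6 to 22 and 13 to 24 fragments. The +3.6 kb sequence is shown because it marks the most widely found region of a muscle actin and holds a single E-box, CAGCTG, in capitals.
Acta2 +3.6 kb, chr19:34251885-34252084: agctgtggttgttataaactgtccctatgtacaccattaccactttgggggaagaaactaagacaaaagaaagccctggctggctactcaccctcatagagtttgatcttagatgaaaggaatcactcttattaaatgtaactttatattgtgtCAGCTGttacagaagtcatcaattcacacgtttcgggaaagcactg
A distal region at -10.29 kb had a peak in 2 GM +dox libraries and 1 DM +dox library, on 6 to 10 fragments, and was the only one of the 21 actin regions found in at least 2 lists whose central 200 bases held a CArG box. A CArG box was present in 1.05% of the 80287 regions searched.

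Actg2, smooth muscle gamma-actin, had 38 peaks in its window, and 28 of them were in equal-length lists, yet only 1 of the 3 regions was nearest to Actg2. The other 2, at +29.28 kb and +40.01 kb, belong to Dguok, which encodes a mitochondrial nucleoside kinase, and were in all 14 libraries. The region nearest to Actg2, at -5.9 kb, chr6:83541608-83542369, was called in 2 of the 4 libraries of GM +dox, on 7 and 17 fragments, and in 2 of the 3 of DM +dox, on 9 and 7 fragments. None of the no dox libraries had a peak there, and no E-box was found in its central 200 bases.

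Actb, beta-actin, had 62 peaks in 8 regions, 31 of them in equal-length lists. Its strongest region was not the promoter but an upstream region at -14.19 kb, chr5:142920700-142921281, between protein-coding genes. Fold enrichment there was 9.04, 23.8, 13.2 and 20.7 in GM no dox, and 21.2, 25.6, 20.4 and 16.1 in GM +dox. It was 13.8, 16.4 and 19.9 in DM no dox and 25.8, 19.1 and 19.7 in DM +dox. Replicate 1 of GM no dox, the shortest list, was the lowest, and the groups overlapped. The summits rested on 24 to 214 fragments, and the peak ranked between 180 and 1655 in its own list in all 14 libraries. Over the 11046 regions with a peak in all 14 lists, the mean fold enrichment of this region was at the 95.8th percentile.

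The start-site region of Actb at +0.61 kb, chr5:142905713-142906859, covered the annotated start and the first intron and was a much weaker peak. Taking the higher peak in each library, fold enrichment was 3.65, 6.90, 5.38 and 6.47 in GM no dox and 7.81, 6.11, 7.82 and 6.14 in GM +dox. It was 5.07, 5.34 and 8.80 in DM no dox and 9.88, 8.87 and 8.05 in DM +dox. All 3 DM +dox libraries exceeded all GM libraries on this unscaled measure, and after quantile normalisation the groups overlapped, with 2.87 to 2.94 in DM +dox on the log2 scale, against 2.89 in replicate 3 of GM no dox and 2.87 in replicate 3 of GM +dox. Its mean fold enrichment lay at the 1.49th percentile of the 11046 regions. When the summit fragments were set against the genome-wide background of each library rather than the local one, the start-site region stood at the 41.3rd percentile and the upstream region at the 94.0th. Local background was 4.03 to 16.3 times the genome-wide one at the start site (median 8.20) and 2.29 to 13.1 times at -14.19 kb (median 6.16).

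The start-site region had summits at 2 places. A summit near the annotated start, from -57 to +21 bases of it, was called in 7 libraries, and a summit in intron 1, from +587 to +816 bases, was called in 11, with both in 4 libraries. In GM the start summit was called in 3 libraries without and 2 with dox and the intron summit in 2 and 4, and in DM the start summit in 1 and 1 and the intron summit in 3 and 2. The 2 sequences that follow come from the regions found in every list. The second is centred on the median of the intron 1 summits, which were called in 11 libraries. In the upstream one the capitals mark TGAGTCA, a match to the AP-1 site TGANTCA, which was present on either strand in 32.0% of all regions and in 9 of the 21 actin regions. The intron 1 sequence, with 68% G and C, held no E-box, no AP-1 site, no CATTCC (the core of the TEAD site), no CArG box, no MEF2 site and no CTCF core.
Actb -14.19 kb, chr5:142920841-142921040: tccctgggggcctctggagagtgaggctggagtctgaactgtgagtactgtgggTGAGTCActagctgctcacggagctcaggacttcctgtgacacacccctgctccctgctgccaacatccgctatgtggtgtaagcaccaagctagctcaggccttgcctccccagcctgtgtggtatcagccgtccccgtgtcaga
Actb intron 1, chr5:142905976-142906175: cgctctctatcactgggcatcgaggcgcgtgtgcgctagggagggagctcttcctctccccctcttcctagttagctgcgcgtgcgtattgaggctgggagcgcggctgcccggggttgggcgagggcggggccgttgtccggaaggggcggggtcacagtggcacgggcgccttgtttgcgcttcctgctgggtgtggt

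Other regions of the Actb window were found in fewer lists. At -3.12 kb a peak was called in GM in 2 of 4 libraries without and 4 of 4 with dox, and in DM in 1 of 3 without and 2 of 3 with dox, on 24 to 57 fragments, and the 3 no dox lists with it were the 3 longest. At -10.02 kb a peak was called in 3 DM libraries, 2 of them +dox, and in 1 GM +dox library. The start-site region of Fbxl18, an F-box gene, at +11.51 kb, had a peak in 13 libraries.

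Actg1, gamma-actin, had 7 peaks in its window, none in an equal-length list and none nearest to Actg1 itself. The regions at -9.48 kb and -11.71 kb were nearer to the start of Fscn2, an actin-bundling fascin of the retina. The first had a peak in 2 GM +dox libraries and 1 DM +dox library on 8 to 9 fragments, the second in 2 GM +dox and 2 DM +dox libraries on 8 to 13 fragments, and neither was in a no dox list. Both held a CAGCTG site. The Actg1 start, which carries the CArG box shown above, had no peak in any of the 14 lists.

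Compared over groups in equal-length lists, the muscle actins averaged 0.688 ± 0.125 peaks per window in GM no dox (SD, n = 4 libraries), 0.75 ± 0.204 in GM +dox (n = 4), 0.667 ± 0.144 in DM no dox (n = 3) and 0.583 ± 0.144 in DM +dox (n = 3). The cytoplasmic actins averaged 1.12 ± 0.25, 0.875 ± 0.479, 1 ± 0.5 and 1.5 ± 0 in the same order. The muscle averages were mostly Dguok, since Actg2 had 2 equal-length peaks in every library, all of them at Dguok. Counting only peaks nearest to the gene's own start, the muscle actins averaged 0.188 ± 0.125, 0.25 ± 0.204, 0.167 ± 0.144 and 0.0833 ± 0.144, and the cytoplasmic actins 0.75 ± 0.289, 0.625 ± 0.25, 0.667 ± 0.289 and 1 ± 0. Acta1, Acta2 and Actc1 averaged at most 0.75 peaks per library in any group, and Actc1 and Actg1 stood at 0 in all 14. Actb had 2 to 3 equal-length peaks in GM no dox, 1 to 3 in GM +dox and in DM no dox, and 3 in each DM +dox library.

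No actin gene passed the test for doxycycline in GM, doxycycline in DM, or differentiation in either treatment. The lowest two-sided exact permutation p in equal-length lists was 0.229, for Actb in differentiation with dox, where the means were 3 in DM +dox and 1.75 in GM +dox. The smallest p the design allows is 0.0286 for doxycycline in GM, 0.1 for doxycycline in DM and 0.0571 for either differentiation comparison, so that only the first can reach 0.05. The groups overlapped for all 6 genes in all 4 comparisons. Over the 21728 genes the groups did not overlap in 0.239% for doxycycline in GM and 1.39% in DM, and in 1.58% for differentiation without and 1.59% with dox.

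**Figure D3:**
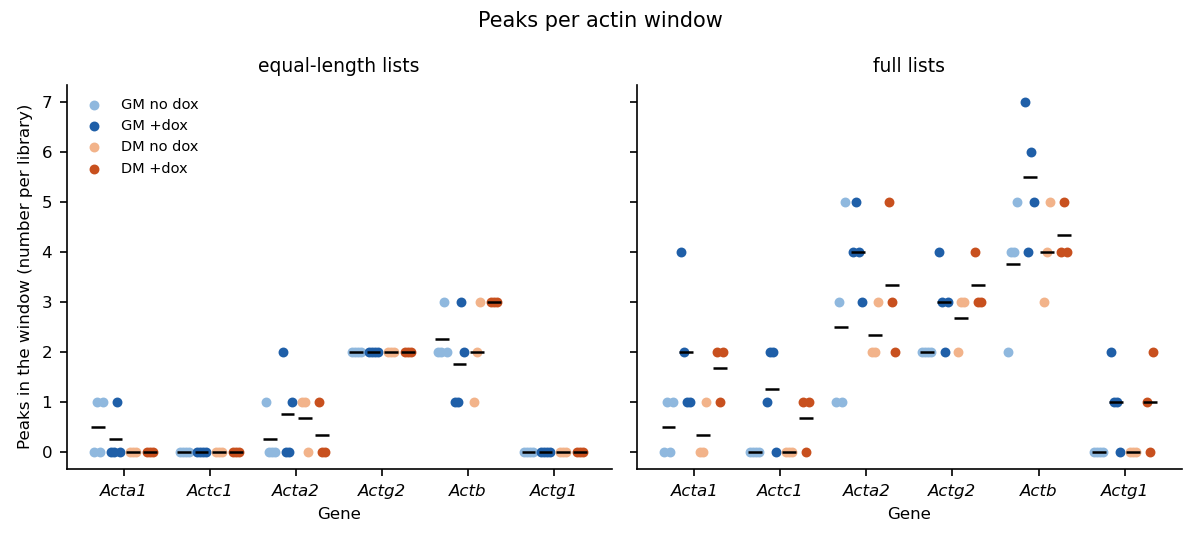
Number of peaks per library (y axis) in the window of each actin gene by group (x axis), in equal-length and in full lists, where points are libraries and bars are group means. Actc1 and Actg1 are at 0 in every equal-length list, Actg2 is at 2 in every equal-length list, and the groups overlap in all panels.

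In full lists the counts were higher with dox at every actin gene. In GM the means without and with dox were 0.5 and 2 for Acta1, 0 and 1.25 for Actc1, 2.5 and 4 for Acta2, 2 and 3 for Actg2, 3.75 and 5.5 for Actb and 0 and 1 for Actg1. The lowest exact permutation p was 0.143, shared by Actc1, Actg1 and Actg2, and the groups overlapped for all 6 genes, where 1.07% of all genes had groups that did not overlap. For doxycycline in DM, in the full lists, none of the 6 genes had groups apart, against 15.4% of all genes. None did for differentiation without dox (0.175% of all genes) or with dox (2.11%). Genes whose full-list groups were apart under doxycycline all had more peaks in the +dox libraries, 233 in GM and 3355 in DM. The number with fewer was 0 in both media, so this direction was not particular to the actins. Both families had higher means: muscle actins were higher with dox by 1.31 peaks per window in GM and 0.917 in DM, and cytoplasmic actins by 1.38 and 0.667. In equal-length lists the same differences were 0.0625 and -0.0833 for muscle and -0.25 and 0.5 for cytoplasmic actins. Only the full lists differ in length between treatments, and the part of list length in these counts was not tested.

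Within their own lists the peaks nearest to a muscle actin ranked low. Of 69 such peaks 10, or 14.5%, were in equal-length lists, with a median rank of 28413 and a median of 17 fragments at the summit. Of 47 peaks nearest to a cytoplasmic actin 21, or 44.7%, were in equal-length lists, with a median rank of 16285 and a median of 42 fragments. All of the latter were Actb peaks. Of all peaks in the 14 lists, 37.5% were in equal-length lists. Because 49 of the 69 muscle peaks came from the longer +dox lists, the shares were also taken by treatment: 5 of 20 muscle and 10 of 21 cytoplasmic peaks of the no dox lists were in equal-length lists, and 5 of 49 and 11 of 26 of the +dox lists. Median fold enrichment was nearly equal, 6.72 for muscle and 6.90 for cytoplasmic actins.

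Of the 21 actin regions found in at least 2 lists, 9 had peaks in +dox lists alone and 0 in no dox lists alone. Over all 61440 regions found in at least 2 lists, 14.1% were found in +dox lists alone and 0.509% in no dox lists alone. Most of the 9 were in few lists, and among regions in 2 to 5 lists the share of all regions found in +dox lists alone was 40.3%, against 9 of 11 actin regions. Muscle actins had 6 of the 9, at Acta1 +11.05 and +3.23 kb, Actc1 -4.14 and -6.34 kb, Acta2 -10.29 kb and Actg2 -5.9 kb, each nearest to the actin itself. Cytoplasmic actins had 3, at Actb +7.54 kb and at both Actg1 regions, each nearest to a neighbouring gene. So regions nearest to the actin itself found with dox alone numbered 6 of 11 for muscle and 0 of 4 for cytoplasmic actins. Those 4 were all at Actb, and only the one at -10.02 kb was in 2 to 5 lists. These counts come from few regions and were given no test.

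The 28 peaks of these 9 regions all came late in their lists. Their ranks ran from 30353 to 53875 with a median of 46031, and none was in an equal-length list. Every one of the 28 lay past 24181, the median length of the no dox lists, and 6 lay past the longest of them, 49300. The summits rested on 6 to 17 fragments, median 9, with fold enrichments of 3.30 to 9.42, median 5.24. The 4 shorter no dox lists hold no peak of such a rank, and whether the DNA was closed there without dox was not tested. CAGCTG was present in 4 of the 9 regions, against 26.8% of all regions found in +dox lists alone and 19.7% of all regions.

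Presence was also compared region by region. No actin region had a peak in every library of one group and in none of the other in any comparison: 0 of 21 regions, where the share of all 80290 regions was 0.386% for doxycycline in GM and 4.26% in DM, and 0.294% for differentiation without and 1.7% with dox. The lowest exact permutation p values were 0.143, 0.4, 0.743 and 0.571 in that order. The smallest p the design allows was 0.0286, 0.1, 0.0571 and 0.0571, so only doxycycline in GM could reach 0.05. With dox, 16 regions in GM and 11 in DM had a peak in a larger share of libraries and 0 in a smaller share. The +dox lists were longer, with 36531 to 58587 peaks against 14710 to 49300. Of all regions in at least 2 lists, 14.1% were in +dox lists alone and 0.509% in no dox lists alone. The same directional share over all regions was not taken, and the part of list length was not tested. In differentiation without dox 5 had a larger share and 3 a smaller, and with dox 5 a larger and 8 a smaller.

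Only regions with a peak in all 14 lists, 11046 of them, entered the test of height, which used limma on quantile-normalised log2 fold enrichment. For the actins these were the Actb regions, since the other 2 regions of the actin windows in all 14 lists belong to Dguok. The start site of Actb had group means, on this log2 scale, of 2.60 without and 2.65 with dox in GM, and of 2.81 and 2.91 in DM. The region at -14.19 kb had 4.24 and 4.24 in GM and 4.19 and 4.08 in DM. SDs were 0.0336 to 0.253 over 3 or 4 libraries at the start site and 0.0995 to 0.154 at -14.19 kb. The difference for doxycycline at the start was 0.05 (SE 0.175, limma adjusted p = 0.967) in GM and 0.10 (SE 0.202, limma adjusted p = 0.933) in DM. That for differentiation was 0.21 (SE 0.189, limma adjusted p = 0.733) without dox and 0.26 (SE 0.189, limma adjusted p = 0.831) with dox. At -14.19 kb all 4 differences lay between -0.15 and -0.01 with limma adjusted p of 0.815 or more. None of these differences passed the test. Over all 11046 regions, limma called 0% for doxycycline in GM, 0% in DM, 0.263% for differentiation without and 0.0453% with dox, and the doxycycline by medium interaction called 0%. Leaving out 1 library at a time, the 29 calls for differentiation without dox ranged from 0 (without replicate 3 of DM no dox) to 58 (without replicate 4 of GM no dox), and the 5 with dox from 2 to 12. An unadjusted p under 0.05 was reached by 674 and 741 regions for doxycycline in GM and DM and by 240 for the interaction, and with the replicate number as a block limma called 0 and 9 regions for doxycycline in GM and DM and 0 for the interaction.

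**Figure D4:**
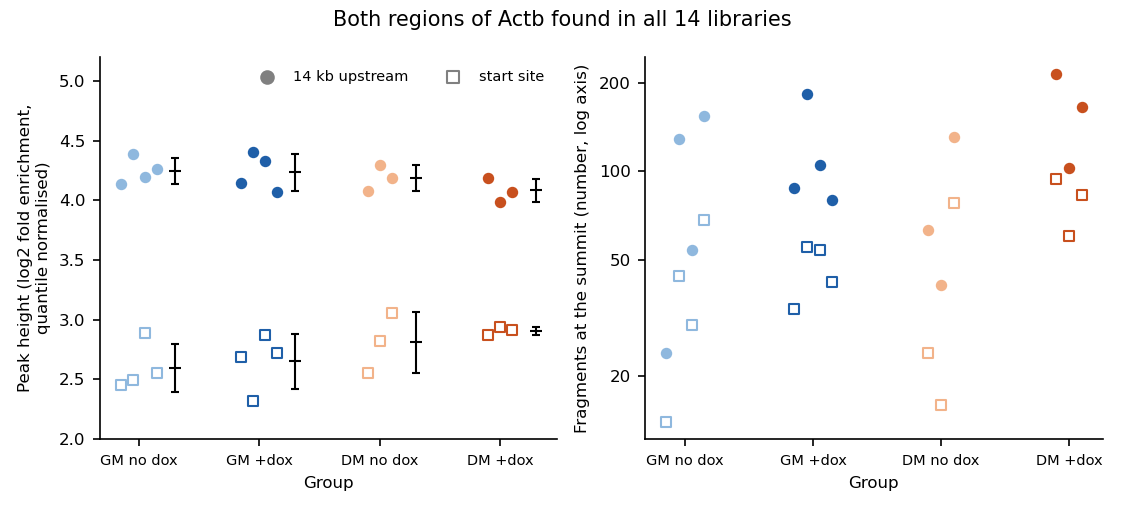
Heights of the Actb regions at -14.19 kb (circles) and at the start site (squares) in the 14 libraries by group, as quantile-normalised log2 fold enrichment with group mean and SD (left) and as fragments at the summit on a log axis (right). Group means lie between 4.08 and 4.24 for the -14.19 kb region and between 2.60 and 2.91 for the start site.

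The heights of the start-site regions of Plod3, Arhgap19 and Arsb were most like that of Actb over the 14 libraries, with Pearson r of 0.879, 0.866 and 0.857 among 4378 genes with a start-site region in all lists, a description whose points share library and depth.

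The wider actin pathway list held 46 genes: regulators of actin genes, tropomyosins, alpha-actinins, capping proteins, monomer-binding proteins, calponins, cross-linkers and other SRF targets. A start-site peak was in all 14 lists for 13 of the 46, in some for 24 and in none for 9, with a median of 12 lists. Of the 4 regulators of actin genes, Mrtfa had one in 14 lists, Srf in 13, Mrtfb in 12 and Myocd in 10. Of the 46, 12 had a start-site region in the height test and 0 were called higher or lower in any of the 4 comparisons, with medians of 0.01, -0.06, 0.16 and 0.02 on the log2 scale, against medians between -0.00 and 0.01 for all regions. Lmod1, a leiomodin that nucleates actin filaments, was picked after its values were seen. Its start-site peak was in all 4 GM +dox and all 3 DM +dox lists, in 0 of 7 no dox lists and in 0 equal-length lists. Of all 80290 regions, 0.386% in GM and 4.26% in DM had such an all-or-none presence for doxycycline, in either direction. The looser class found in +dox lists alone held 14.1% of regions in at least 2 lists, but 8421 of its 8687 regions were in only 2 to 5 lists. Tagln, an SRF target, had one in 2 and 4 GM libraries without and with dox, and in 0 and 2 DM libraries.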

How the data were processed

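The authors processed the reads with nf-core/atacseq against mm10, removed blacklisted regions, named deepTools among their tools and ran MACS2 separately on every library for narrow peaks. The MACS2 and deepTools versions and the treatment of reads with several matches are not given in the sources used here. The deposited lists give, per peak, a fold enrichment over local background (a ratio), the -log10 p-value and -log10 q-value, and a score of 10 times the latter. The lowest deposited -log10 q was 1.30. No identical lists were found among 120 pairs.

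The members and gene lists were chosen with earlier results of these data known. All 6 actins are named, with the region over each start site, regions that passed a test and the strongest region of a window without a start-site region. Fragments at a summit were solved from fold enrichment and -log10 p. Peaks per gene and presence per region were compared by two-sided exact permutation tests over libraries, and heights by limma 3.58.1 (R 4.3.3, trend, 1 fit of 4 groups) with Benjamini-Hochberg adjustment over 11046 regions. Family means were given no test. P-values measure only the spread between these libraries. Scripts (Python 3.11.15) were tested on simulated data. Promoter sequences are from RefSeq (GRCm38.p6), and region sequences from the same assembly. Motifs were searched on both strands in the 200 bases around a region's median summit and, in promoters, in 160 bases; CAGCTG matches also count as CANNTG.

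Same-numbered libraries of different groups deviated together, with a correlation of 0.106 to 0.465 in 19 of 19 pairs (median 0.198). In 54 pairs of different numbers it was -0.385 to 0.212. The numbers were therefore taken to mark paired libraries, but the main tests left this pairing out. It entered only as the replicate block among the alternatives. Alternatives covered list length, ranking, window, threshold, normalisation, left-out libraries and the replicate block; heights from summit fragments over background coverage were added after seeing the data.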

Additional observations from a re-analysis of the deposited data

Results flagged for a closer look

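In 3 groups of 4 libraries 1 library stood apart in its number of peaks in an equal-length list, out of 32 such groups examined. Chance sets about 1 in 20 groups of continuous values apart, a rate that does not apply to small whole numbers, where a single differing library is always set apart. Replicate 3 of GM +dox had 1 peak in the Acta1 window and the other libraries of its group 0. Replicate 1 of GM no dox had 1 peak in the Acta2 window and the others 0. Replicate 3 of GM no dox had 3 peaks in the Actb window and the others 2. Each gap is a single peak.

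Replicate 1 of DM +dox, which the study left out and no comparison used, still had 5 peaks in the actin windows. The strongest was the Actb region at -14.19 kb, with a fold enrichment of 10.4 on 15 fragments at rank 501 of its list. The others were 1 at the start of Fbxl18 and 3 at Dguok. The Actb start site had no peak in that list.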

How the results depend on the processing

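The differences in mean peaks per window had no test. They are given for doxycycline in GM, doxycycline in DM, differentiation without dox and differentiation with dox, in that order. With the replicate number as a block (differences within shared numbers), those of the muscle actins were 0.0625, -0.0833, 0 and -0.0833. Those of the cytoplasmic actins were -0.25, 0.5, -0.167 and 0.5. The block changed no call on an actin, but peak counts had too few shared numbers to pass under it. Without one library at a time the muscle differences ran from -0.0208 to 0.146, -0.167 to -0.0417, -0.0833 to 0.0625 and -0.25 to -0.0833, and the cytoplasmic ones from -0.458 to -0.125, 0.25 to 0.75, -0.375 to 0.125 and 0.5 to 0.833, and the count of actin regions called in height stayed at 0. Values that moved by more than the spread between replicates were, for muscle actins, 1.31, -0.125 and -0.125 for doxycycline in GM (full lists, ranking by fold enrichment, 50 kb windows), 0.917 and 0.125 for doxycycline in DM (full lists, all 16 libraries), -0.188 for differentiation without dox (all 16 libraries), and 0.25 and 0 with dox (50 kb windows, replicates 1 and 2 alone). For cytoplasmic actins they were 1.38 and 0.125 for doxycycline in GM (full lists, lists of 7355 peaks), 1 for doxycycline in DM and -0.5 for differentiation without dox (replicates 1 and 2 alone), and -0.583, 0.0417, 1 and 0.25 with dox (full lists, lists of 7355, replicates 1 and 2 alone, replicates 3 and 4 alone). The causes were not tested.

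No actin gene or region passed its test under any alternative run. Directions turned in 10 of 432 alternatives for peaks per gene, 9 of 748 for presence and 15 of 233 for height. In full lists the difference was 1.5 for Acta1 and 1.75 for Actb (doxycycline in GM), 1 for Acta2 (doxycycline in DM), -0.167 for Acta2 and 0.25 for Actb (differentiation without dox), and -1.17 for Actb (with dox). Ranked by fold enrichment it was -0.25 for Acta2 (doxycycline in GM) and 0.167 for Acta1 (differentiation with dox), and in lists of 7355 it was 0.25 for Actb (doxycycline in GM). The share of libraries with the Acta1 +9.8 kb peak differed by -0.25 for doxycycline in GM in equal-length lists. At a -log10 q of at least 5, shares for differentiation differed by -0.25 at Acta1 +3.23 kb, 0.167 at Actc1 -4.14 kb and -0.167 at Actg2 -5.9 kb with dox, and by -0.167 at Acta2 +11.3 kb and -0.25 at Acta2 +1.04 kb without. The Actb start height for doxycycline in GM was -0.077 with median centring, -0.020 by -log10 p, -0.42 with imputed heights and -0.18 by summit fragments; in DM it was -0.0016 with median centring and -0.40 with imputed heights, and for differentiation without dox -0.13 by summit fragments.

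Leaving out 1 library at a time turned some of these uncalled values: the Actb peak count for differentiation without dox ranged from -0.75 to 0.25 (turned without replicate 2 of DM no dox), the share at Actc1 -4.14 kb with dox from -0.333 to 0.25 (replicate 3 of DM +dox) and that at Acta2 +1.04 kb from -0.25 to 0.333 in either treatment (replicate 2 of either DM group). The Actb start height ranged from -0.022 to 0.16 for doxycycline in GM (replicate 3 of GM +dox), from -0.031 to 0.22 in DM (replicate 2 of DM no dox) and from -0.084 to 0.17 for the interaction (replicates 3 of GM no dox, 2 of GM +dox and 2 of DM no dox), and the -14.19 kb height from -0.065 to 0.046 in GM (replicates 2 of GM no dox and 1 and 4 of GM +dox). Heights over all 16 libraries gave no value for an actin, since the Actb regions are not in all 16 lists. Limma adjusted p for the Actb heights ran from 0.51 to 1.00 over all alternatives. Called regions over the whole genome went from 29 to 130 (differentiation without dox) and 5 to 39 (with dox) under the block, to 53 and 28 with median centring, 129 and 139 by -log10 p, 172 and 901 of 53832 regions with imputed heights, 281 and 268 by summit fragments, 2 and 0 in the fit on equal-length lists, as in that on the higher part of the regions, and 3 and 6 with the compared groups alone. Doxycycline calls in DM were 7 with median centring and 9 under the block, and in GM 1 by -log10 p and 1 by summit fragments. Leaving out 1 library at a time, they reached 6 in GM without replicate 4 of GM no dox and 1 in DM without replicate 1 of GM no dox. Actin peaks rested on 4 to 232 fragments, median 29.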
